A study of Mus musculus with 4 samples.

Results

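The STAT transcription factors described here are Stat2, Stat3, Stat4, Stat5a, Stat5b and Stat6, 6 of the 31053 genes in the deposited count matrices. They were chosen by name and read in every library as unique molecular identifiers (UMIs, captured RNA molecules) per 10000 UMIs of a cell type. The libraries were 2 of control skin from C57/BL6 mice that received no tumor cells and 2 of skin tumors grown from the 2323 line in C57BL/6 mice. For the tumors, 200000 cells of the line were injected under the flank skin of female and male mice aged 8 to 10 weeks, and the masses were taken 2 weeks later at 100 to 200 mm3. The 2323 line is 1 line, derived from a grafted tumor whose alleles include K14rtTA, tetOCre and P53-/-, in which the keratin 14 promoter drives the inducible Cre system in epidermal cells, so it stands for 1 tumor origin. The age of the control mice is not given in the sources used here. All samples were digested with collagenase IV at 37 °C for 2 h and sorted as CD45+ DAPI- cells, that is, live cells of blood origin, before 10x 3' library preparation. All 4 libraries carried UMIs of Y-linked genes and almost none of Xist.

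STAT proteins are latent transcription factors. A cytokine bound to its receptor activates Janus kinases, these phosphorylate the receptor and the STAT, and paired STATs enter the nucleus and bind DNA until inhibitors such as the SOCS proteins end the signal. STAT2 acts with IRF9 downstream of type I interferons. STAT3 follows cytokines of the IL-6 and IL-10 families and, in lymphocytes, IL-21 and IL-23. STAT4 follows IL-12 and supports interferon gamma production in T and NK cells, STAT5A and STAT5B follow IL-2, IL-7 and IL-15 in lymphocytes and GM-CSF in myeloid cells, and STAT6 follows IL-4 and IL-13. These factors are regulated mainly by phosphorylation, which RNA counts do not show, so every value below is an RNA level.

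The 6 genes lie in 3 places of the mouse genome (GRCm38). Stat2 (ENSMUSG00000040033) spans chr10:128270559-128292849 on the plus strand and Stat6 (ENSMUSG00000002147) lies on the same chromosome at chr10:127642986-127660957, also on the plus strand. Stat4 (ENSMUSG00000062939) is at chr1:51987148-52107189 on the plus strand. The other 3 form a cluster on chromosome 11, with Stat5b (ENSMUSG00000020919) at chr11:100780731-100850724 on the minus strand, Stat5a (ENSMUSG00000004043) at chr11:100859351-100885169 on the plus strand and Stat3 (ENSMUSG00000004040) at chr11:100885098-100939540 on the minus strand. Stat5b and Stat5a are neighbours separated by 8626 bases, and Stat5a and Stat3 overlap by 72 bases at their 3' ends on opposite strands. Stat5a and Stat5b are close paralogs, so reads from stretches that they share could not be assigned to either gene, and their levels are uncertain to that extent.

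RefSeq lists 9 promoters for the 6 genes in the GRCm38.p6 table. They were searched on both strands for GAAANNGAAA, the core of the element that the STAT2 and IRF9 complex binds, and for TTCNNNGAA, the palindrome that STAT dimers bind. GAAANNGAAA was found in 2 of the 9, Stat2 and the second of the Stat4 promoters, against 3.44% of all 32851 promoters in the table (1131). TTCNNNGAA was found in 0 of the 9, against 8.30% of all promoters (2726). The 250 bases before the start of these 2 promoters are shown because they hold the match. Both tumors lay above both controls in 7 of 10 gates for Stat2 and 8 for Stat4, and also in 6 for Stat5b, whose promoters hold none. Over all genes and gates this share was 32.6%, and a link between a match and a change was not tested. Capitals mark the match, which starts 222 bases upstream of the Stat2 start (chr10:128270248-128270497, plus strand, the match read on the minus strand) and 97 bases upstream of the second Stat4 start (chr1:52007990-52008239, plus strand). That second start lies within the Stat4 gene as placed above, and the promoter at the first Stat4 start holds no match. A match is a description of the letters, not evidence of binding.
Stat2: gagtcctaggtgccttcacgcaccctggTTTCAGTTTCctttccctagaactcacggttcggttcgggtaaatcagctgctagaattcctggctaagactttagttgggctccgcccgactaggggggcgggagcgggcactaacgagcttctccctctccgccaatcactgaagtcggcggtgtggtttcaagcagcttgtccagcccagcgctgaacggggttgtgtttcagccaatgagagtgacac
Stat4: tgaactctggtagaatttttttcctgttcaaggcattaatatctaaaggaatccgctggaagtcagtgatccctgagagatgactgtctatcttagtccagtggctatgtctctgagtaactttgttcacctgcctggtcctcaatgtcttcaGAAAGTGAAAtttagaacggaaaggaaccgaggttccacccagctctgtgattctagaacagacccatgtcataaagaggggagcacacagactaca

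The libraries held 3499 and 3862 cell barcodes in control skin 1 and 2 and 5176 and 2258 in tumor 1 and 2, with 34893543 to 73904272 UMIs in all, and pairs of libraries shared 1 to 7 barcodes. After filtering, 1994 to 4784 cells per library remained. Cells were assigned to 15 marker gates without use of any Stat gene: macrophages by the complement genes C1qa, C1qb and C1qc, monocyte-like cells by Ly6c2, Plac8 and Ccr2, conventional dendritic cells by Xcr1 and Clec9a (cDC1) or Cd209a and Flt3 (cDC2), mature dendritic cells (mDC) by Ccr7, Fscn1 and Cacnb3, Langerhans cells (LC) by Cd207 and Epcam, neutrophils by S100a8 and S100a9, mast cells by Mcpt4 and Cpa3, dendritic epidermal T cells (DETC) and other gamma delta T cells (gdT) by T cell receptor genes, CD8 T, CD4 T and regulatory T cells (Treg) by Cd8a, Cd4 and Foxp3, natural killer (NK) cells by Ncr1 and Klrb1c, and group 2 innate lymphoid cells (ILC2) by Gata3 and Il1rl1. The gates held 54.1% to 67.4% of the kept cells. Markers that took no part in gating were checked in 60 marker and gate combinations, 4 per gate, with some markers used for more than 1 gate. In 60 the level was above the median of the other gates, and in 43 it was highest in its own gate. The weakest gates were cDC2 and gdT, each with 1 of 4 markers highest and 2 of 4 at place 1 or 2. In 10 gates every library held at least 10 cells, and these were compared between groups. LC, DETC, gdT, ILC2 and mDC were too few in one group or the other and are described only. A lower level per 10000 UMIs in a gate can be less RNA of the gene per cell or fewer cells that carry it, and the gate sums compared here do not tell these apart. Each group was 2 libraries, and the paper describes the material as 2 tumors and 2 control skins. The number of mice per library is not stated, so p-values measure the spread between these libraries. An exact permutation test of 2 against 2 cannot give a p below 0.333, so all tests come from edgeR models fitted across genes.

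Between cell types, the 6 genes formed distinct patterns. Among the 10 tested gates, Stat3, Stat4, Stat5a and Stat5b were higher in NK cells, CD8 T cells, CD4 T cells and Treg. Stat3 and Stat4 were also higher in neutrophils. Stat2 was higher in macrophages, monocyte-like cells, cDC1 and cDC2, and Stat6 in neutrophils alone. Other lymphocytes did not all follow, with DETC at place 12 for Stat5a and 10 for Stat5b among the 14 gates of control skin. Mature dendritic cells, not tested, had Stat4 levels in the range of the lymphocytes or above. Each gate was compared with the mean of the other 9 by edgeR's quasi-likelihood test over the gate sums of all 4 libraries, and of the 60 member and gate combinations 23 were higher and 20 lower at an adjusted p under 0.05. Over all genes in this comparison 21.3% of combinations were called higher and 15.3% lower. Gates of 1 library share depth and free RNA.

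**Figure D1:**
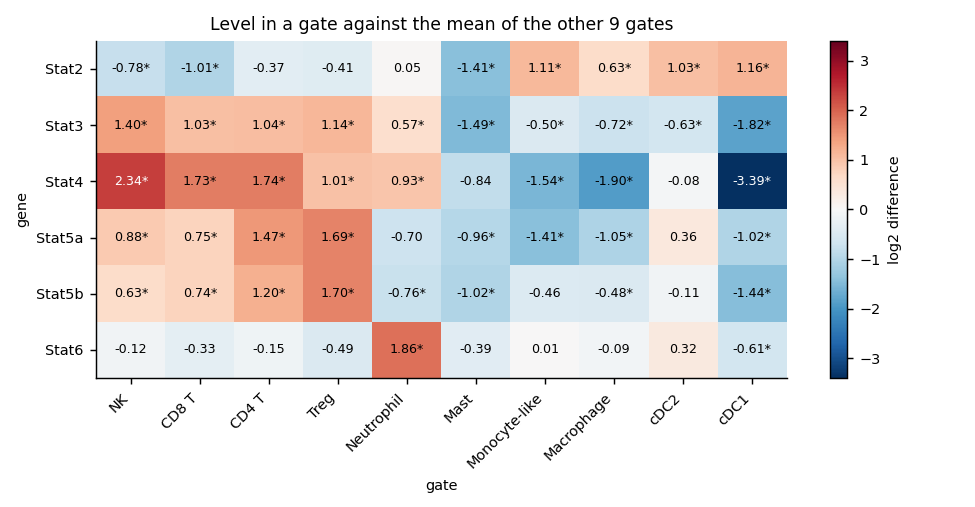
Levels of the 6 Stat genes by gate, as the log2 difference of each of the 10 tested gates from the mean of the other 9 over the 4 libraries, shown as colors and numbers with an asterisk where the adjusted p was under 0.05. Stat4 spans the widest range, from 2.34 in NK cells to -3.39 in cDC1, and Stat6 stands out in neutrophils at 1.86.

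Stat4 had the steepest gradient. In control skin it was at 8.09 and 9.03 UMIs per 10000 in NK cells, 5.40 and 4.74 in CD8 T cells, 4.17 and 4.26 in CD4 T cells and 2.65 and 2.26 in Treg, against 0.424 and 0.324 in macrophages and 0.255 and 0.0192 in cDC1. Its log2 difference from the other gates was 2.34 in NK cells, 1.74 in CD4 T cells, 1.73 in CD8 T cells, 1.01 in Treg and 0.93 in neutrophils, and -1.54, -1.90 and -3.39 in monocyte-like cells, macrophages and cDC1, all called. From NK cells to cDC1 the range was 5.16 ± 0.46 (SE) on the log2 scale. The control cDC1 levels came from 13 and 22 cells with 235259 and 520363 UMIs of all genes, so they rest on few Stat4 UMIs. In the tumors cDC1 were at 0.459 and 0.211. Neighbouring gates in the order of levels differed in 2 of 9 steps, from neutrophils to cDC2 and from macrophages to cDC1, so the 4 lymphocyte gates were not separated step by step. Mature dendritic cells had Stat4 levels in the range of the lymphocytes or above, at 6.63 and 12.9 UMIs per 10000 in control and 17.1 and 13.2 in tumors, from 5, 4, 40 and 9 cells, and were not tested. In control skin, ILC2 were at 3.89 and 4.27, while the gamma delta lineages were lower, at 1.02 and 0.799 in DETC and 1.48 and 1.43 in gdT.

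Stat3, which relays IL-6 family signals, was high across the lymphocytes. In control skin it was at 15.5 and 19.1 UMIs per 10000 in NK cells, 16.9 and 15.6 in Treg, 11.3 and 15.9 in CD4 T cells, 10.9 and 12 in CD8 T cells, 13.5 and 13.3 in DETC and 15.7 and 18.0 in ILC2. Myeloid gates were lower, with 4.07 and 3.49 in macrophages and 1.83 and 2.21 in cDC1. NK, Treg, CD4 T and CD8 T cells were called higher than the other gates (log2 differences 1.40, 1.14, 1.04 and 1.03), as were neutrophils at 0.57. Monocyte-like cells, cDC2, macrophages, mast cells and cDC1 were called lower, from -0.50 to -1.82. With no filter on low counts, the calls were lost in neutrophils (0.48, adjusted p = 0.0519 by edgeR) and monocyte-like cells (-0.47, adjusted p = 0.103 by edgeR). In the control libraries alone, where 14 gates were compared and DETC, gdT and ILC2 join the other lymphocytes, the neutrophil difference was -0.11. Neighbours differed from neutrophils to monocyte-like cells and from macrophages to mast cells, in 2 of 9 steps.

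Stat5a and Stat5b, the paralogs that relay IL-2, were both highest in Treg among the 10 tested gates over all 4 libraries. The step to CD4 T cells was not called for either (0.20 ± 0.30 and 0.44 ± 0.24, SE). In the tumors Stat5a was at 2.16 and 4.12 in CD4 T cells and 2.40 and 2.68 in Treg. In control skin Stat5a was at 5.02 and 3.86 UMIs per 10000 in Treg, 2.62 and 2.46 in CD4 T cells, 2.04 and 2.07 in NK cells and 0.392 and 0.287 in monocyte-like cells. Stat5b was at 6.69 and 7.92 in Treg, 4.39 and 3.85 in CD4 T cells, 2.57 and 2.73 in NK cells and 0.893 and 0.596 in cDC1. The Treg difference from the other gates was 1.69 for Stat5a and 1.70 for Stat5b, and CD4 T cells, NK cells and CD8 T cells were called higher for both genes (0.75 to 1.47 and 0.63 to 1.20). Macrophages, cDC1 and mast cells were called lower for both. In the control libraries alone, the calls were lost for Stat5a in cDC1, mast and CD8 T cells and for Stat5b in mast and NK cells. With stricter gates they were lost for Stat5a in cDC1 and mast cells and for Stat5b in macrophages. The Stat5b call in macrophages was also lost in the tumor libraries alone and with no filter on low counts. Monocyte-like cells were called lower for Stat5a alone, at -1.41, and neutrophils for Stat5b alone, at -0.76. In neutrophils Stat5a was at -0.70 (adjusted p = 0.0523 by edgeR) and was called lower in the control libraries alone (-1.51) and with no filter (-0.78). The Stat5b call in neutrophils was lost in the tumor libraries alone (-0.32). The difference between the paralogs was not tested. Of the 9 steps between neighbouring gates, 1 differed for each gene, from cDC2 to neutrophils for Stat5a and from NK cells to cDC2 for Stat5b. Not all lymphocytes were high: among the 14 gates of control skin, DETC stood at place 12 for Stat5a and 10 for Stat5b. ILC2 stood at places 2 and 4 and gdT at places 8 and 3.

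Stat2 had the reverse distribution. In control skin it was at 1.02 and 1.73 UMIs per 10000 in cDC1, 0.882 and 0.826 in monocyte-like cells, 0.765 and 0.837 in cDC2 and 0.675 and 0.702 in macrophages, and at 0.267 and 0.211 in CD8 T cells. cDC1, monocyte-like cells, cDC2 and macrophages were called higher than the other gates (log2 differences 1.16, 1.11, 1.03 and 0.63) and NK cells, CD8 T cells and mast cells lower (-0.78, -1.01 and -1.41). The cDC2 call was lost with stricter gates (0.63, adjusted p = 0.0620 by edgeR). The mast cell call was lost in the control libraries alone (-0.69) and the NK call in the tumor libraries alone (-0.53). Langerhans cells of control skin were among the highest, at 1.27 and 1.40, and within the control libraries the range from LC to CD8 T cells was 2.66 ± 0.30 (SE). None of the 9 steps between neighbouring gates passed the test (0 of 9), the widest being 0.52 ± 0.32 (SE) from macrophages to neutrophils.

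Stat6, which relays IL-4 and IL-13, was low and nearly level outside neutrophils. In control skin neutrophils held 1.51 and 0.829 UMIs per 10000, and the other 9 tested gates ranged from 0.244 to 0.627. Neutrophils were 1.86 above the other gates and the step to the next gate, cDC2, was 1.39 ± 0.23 (SE) with an adjusted p of 6.49e-06 by edgeR. The other called difference was cDC1, at -0.61, which was not called with no filter on low counts (adjusted p = 0.112 by edgeR), in the control libraries alone (-0.37) or in the tumor libraries alone (-0.76). Among gates seen mainly in control skin, ILC2 came closest to neutrophils, at 0.711 and 0.852.

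**Figure D2:**
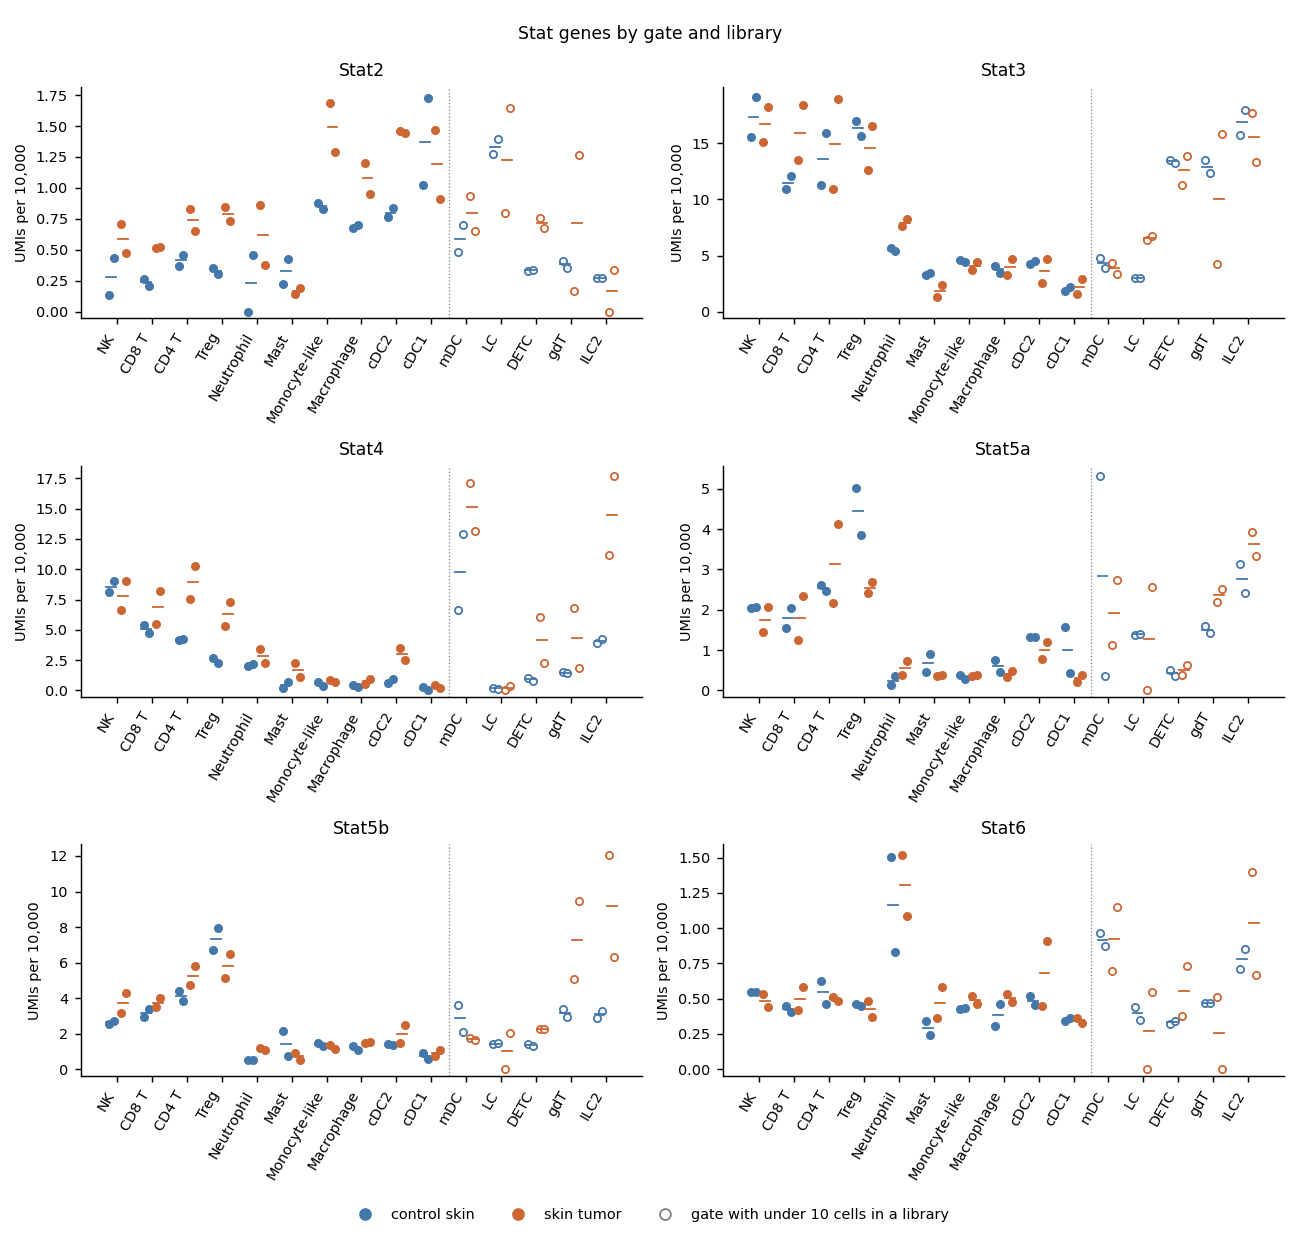
UMIs per 10000 of each Stat gene in each gate, 1 point per library in blue for control skin and orange for tumors, with short lines at the group means and open points for gates with under 10 cells in a library. In cDC2 the Stat4 points of the tumors (3.47 and 2.50) lie above those of control skin (0.622 and 0.933), whereas the Stat6 points of the groups overlap in 6 of the 10 tested gates.

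Against control skin, the tumor libraries differed most in Stat4. It rose in cDC2, CD4 T cells and Treg, and these were the 3 called changes among the 57 member and gate combinations that passed the count filter (Stat2, Stat5a and Stat6 in mast cells did not pass). None of the 57 was called lower by edgeR (0). At an unadjusted p under 0.05 there were 13 higher and 2 lower, the latter Stat5a in Treg and cDC1. Over all genes and gates 2.13% of 68077 combinations were called higher and 2.41% lower, and 9.65% were higher at an unadjusted p under 0.05. Both tumors were above both controls in 27 of the 60 member and gate combinations and below in 9, while over all genes these shares were 32.6% and 19.1%.

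**Figure D3:**
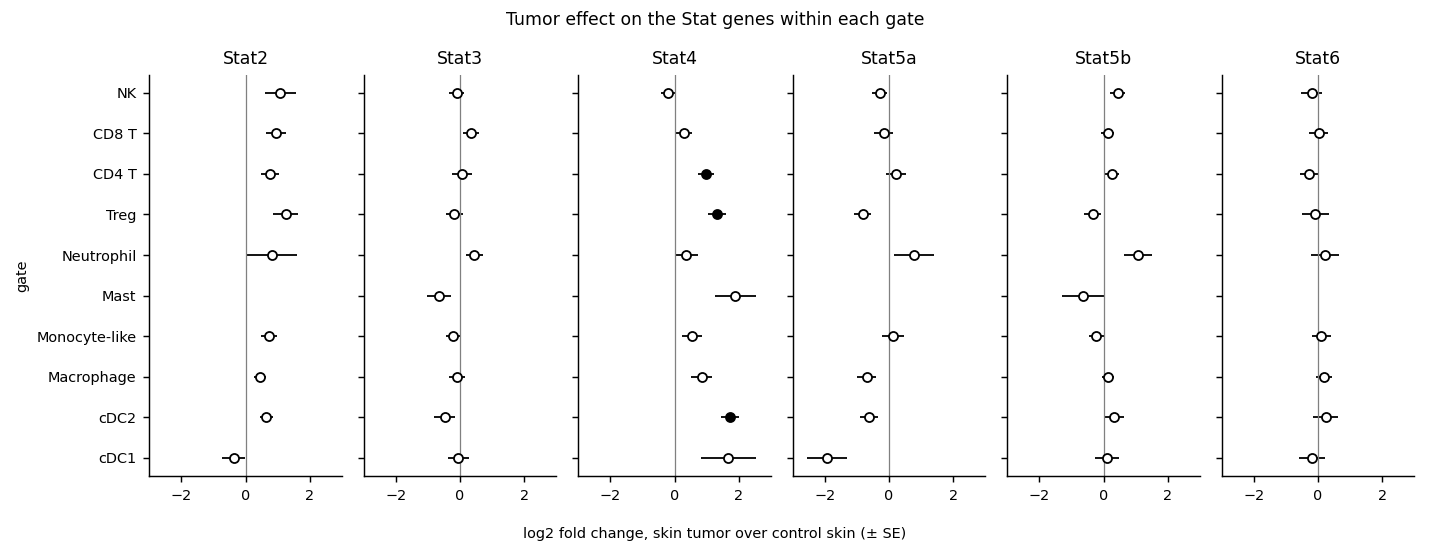
Log2 change of each Stat gene between tumor and control skin libraries in each of the 10 tested gates, with bars for the standard error and filled points for called changes. Stat4 is called in cDC2 at 1.73, CD4 T cells at 0.99 and Treg at 1.33, and the Stat6 values stay between -0.27 and 0.24.

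Stat4 in cDC2, the dendritic cells that present antigen mainly to CD4 T cells, was at 0.622 and 0.933 UMIs per 10000 in control skin and 3.47 and 2.50 in the tumors, from 65, 136, 584 and 159 UMIs. The groups did not overlap, and the log2 change was 1.73 ± 0.27 (SE), or 3.31-fold, with an adjusted p of 0.0233 by edgeR. In cDC2, 3.61% of 8032 genes were called higher. Mgl2, the check marker that was highest in this gate, was lower in both tumors than in both controls (values below, with the targets of STAT6). Whether the makeup of the gate differed between groups was not tested. The mature dendritic marker Ccr7 was at 1.25, 1.37, 1.93 and 2.89 UMIs per 10000 in the same order of libraries, Fscn1 and Cacnb3 reached at most 0.0314 and 0.0786, and C1qa was at 0.0287, 0.0960, 0.149 and 0.283. Genes induced by dissociation summed to 42.4 and 37.4 against 60.8 and 128, and cycling cells made up 21.7% and 30.1% against 41.0% and 48.6%. The change was 1.72 ± 0.36 (SE) without cycling cells and 1.85 ± 0.23 (SE) without cells holding Fscn1, Cacnb3 or CD3 genes, both called. The latter filter left 31, 55, 76 and 30 of 46, 73, 83 and 35 cells and did not use Ccr7 or C1q genes. The parts of dissociation, of cells with Ccr7 and of macrophage RNA were not tested. The call was lost without control skin 1 (log2 change 1.44, adjusted p = 0.179) or control skin 2 (2.02, adjusted p = 0.173), which leave 1 control.

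In CD4 T cells, Stat4, through which IL-12 supports the T helper 1 program, was at 4.17 and 4.26 UMIs per 10000 in control skin and 7.54 and 10.3 in the tumors. The log2 change was 0.99 ± 0.25 (SE), or 1.98-fold, with an adjusted p of 0.0435 by edgeR, and 5.02% of 7993 genes were called higher in this gate. The tumors lay above both controls but also apart from each other. C1qa was at 0.0492, 0.0769, 0.282 and 0.424, the NK marker Eomes at 0.231 and 0.462 in the tumors with no UMI in the controls (up to 0.0369 and 0.0769 allowed by 3 UMIs), and dissociation genes at 26.4 and 18.2 against 64.9 and 60.7, while cycling cells made up 45.9% and 47.4% against 41.9% and 42.9%. The change was 1.18 ± 0.28 (SE) without cycling cells and 1.05 ± 0.24 (SE) without cells holding NK markers (Ncr1, Klrb1c, Eomes or Klra8), both called. The NK marker filter left 73, 38, 119 and 95 of 74, 38, 129 and 105 cells and did not use C1q genes. The parts of dissociation and of macrophage RNA were not tested. The call was lost without control skin 1 (log2 change 1.05, adjusted p = 0.208), control skin 2 (0.90, adjusted p = 0.192) or tumor 2 (0.77, adjusted p = 0.104), and with stricter gates (1.05, adjusted p = 0.114).

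In Treg, Stat4 was at 2.65 and 2.26 UMIs per 10000 in control skin and 5.29 and 7.28 in the tumors, from 29, 23, 111 and 54 cells. The log2 change was 1.33 ± 0.27 (SE), or 2.52-fold, with an adjusted p of 0.0158 by edgeR, where 2.69% of 5836 genes were called higher. The groups did not overlap, and the tumor Treg reached the level of control CD8 T cells. Dissociation genes were at 26.4 and 18.1 against 30.1 and 63.3, C1qa was at 0.0354, 0.0502, 0.136 and 0.368, and cycling cells made up 34.5% and 26.1% against 52.3% and 40.7%. The change was 1.52 ± 0.28 (SE) without cycling cells and 1.36 ± 0.28 (SE) without cells holding NK markers (Ncr1, Klrb1c, Eomes or Klra8), both called. The NK marker filter left 29, 23, 111 and 52 cells and did not use C1q genes. The parts of dissociation and of macrophage RNA were not tested. The call was lost without control skin 2 (log2 change 1.22, adjusted p = 0.0551) and with stricter gates (1.36, adjusted p = 0.0917).

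In the other 7 gates Stat4 did not pass the test. NK cells, where it was highest, had 8.09 and 9.03 in control skin and 6.61 and 9.02 in the tumors, a log2 change of -0.19. CD8 T cells had 5.40 and 4.74 against 5.51 and 8.20 (0.30). Mast cells had 0.226 and 0.732 against 2.24 and 1.10 (1.90 ± 0.63, adjusted p = 0.184 by edgeR), and macrophages 0.424 and 0.324 against 0.551 and 0.932 (0.84 ± 0.32, adjusted p = 0.305 by edgeR). Mast cells passed without tumor 2 (2.49, adjusted p = 6.85e-05 by edgeR), and also with no filter, without cycling cells and without the cells highest in UMIs (adjusted p from 0.0252 to 0.0498), and macrophages passed without tumor 1 (1.22, adjusted p = 0.00839 by edgeR) and with no filter (0.90, adjusted p = 0.00691). The log2 changes in neutrophils, monocyte-like cells and cDC1 were 0.37 ± 0.34, 0.55 ± 0.32 and 1.67 ± 0.86 (SE). Both tumors were above both controls for Stat4 in 8 of 10 gates, below in 0, and the median log2 change over gates was 0.92, against medians of all genes between 0.0052 and 0.070 in the same gates. The shares over all genes and gates were 32.6% above and 19.1% below.

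Stat2, the interferon signal transducer, had tumor libraries above control in 7 of 10 gates, below in 1, and a median log2 change of 0.76, but no gate passed the test over all genes (0 called by edgeR, 7 at an unadjusted p under 0.05). Over all genes and gates, 32.6% lay above, 19.1% below and 9.65% were higher at an unadjusted p under 0.05 by edgeR. In cDC2 it was at 0.765 and 0.837 UMIs per 10000 in control skin and 1.46 and 1.45 in the tumors (0.65, adjusted p = 0.0993 by edgeR). In CD8 T cells it was at 0.267 and 0.211 against 0.518 and 0.519 (0.95, adjusted p = 0.0873 by edgeR), and in Treg at 0.354 and 0.301 against 0.850 and 0.736 (1.25 ± 0.39, adjusted p = 0.1005 by edgeR). In these gates the groups did not overlap and replicates lay close together. CD4 T cells had 0.369 and 0.462 against 0.830 and 0.650, macrophages 0.675 and 0.702 against 1.20 and 0.954, and monocyte-like cells 0.882 and 0.826 against 1.68 and 1.29. cDC1, the gate with the highest Stat2, had 1.02 and 1.73 against 1.47 and 0.913, overlapping, with a log2 change of -0.37.

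Treg, the tested gate with the highest levels of both paralogs over all libraries, had Stat5a and Stat5b levels in both tumors below both controls. Neither gene passed the test. Stat5a was at 5.02 and 3.86 UMIs per 10000 in control skin and 2.40 and 2.68 in the tumors, a log2 change of -0.83 ± 0.25 (SE; adjusted p = 0.097 by edgeR). Stat5b was at 6.69 and 7.92 against 5.16 and 6.50, a log2 change of -0.34 ± 0.25 (SE; adjusted p = 0.532 by edgeR). In cDC1 Stat5a was at 1.57 and 0.423 against 0.220 and 0.375 (-1.93 ± 0.62, adjusted p = 0.118 by edgeR), from 13, 22, 66 and 11 cells. With no filter on low counts this change was called (-1.94, adjusted p = 0.000681 by edgeR), and without control skin 2 it was -2.74. Without tumor 2, the Stat5a change was -1.03 in macrophages and -1.04 in cDC2, against -0.70 and -0.62 with all libraries. Over the 10 gates Stat5a had both tumors below in 4, above in 1, with a median of -0.30, and Stat5b both above in 6, below in 1, with a median of 0.13. Across all genes and gates, 19.1% lay below and 32.6% above. In neutrophils Stat5b was at 0.502 and 0.522 against 1.21 and 1.09 (1.07 ± 0.43, adjusted p = 0.755 by edgeR).

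Stat3 and Stat6 were called in no gate. Stat3 overlapped in 6 of 10 gates, with a median log2 change of -0.10 and a range from -0.66 in mast cells (3.28 and 3.48 against 1.30 and 2.33) to 0.45 in neutrophils (5.65 and 5.40 against 7.63 and 8.22). In cDC2 Stat3 was at 4.28 and 4.53 against 2.58 and 4.67 (-0.48 ± 0.32). The change there was -1.07 without tumor 2, and it was called lower with stricter gates (-1.01, adjusted p = 0.0178 by edgeR). In this gate, 31 of 46 and 55 of 73 control cells held no Fscn1, Cacnb3 or CD3 genes, against 76 of 83 and 30 of 35 tumor cells. Leaving out the cells that held such genes gave no call for Stat3, and their part in the stricter result was not tested. In NK cells Stat3 was at 15.5 and 19.1 against 15.1 and 18.2 and in Treg at 16.9 and 15.6 against 12.6 and 16.5. Stat6 also overlapped in 6 of 10 gates, with a median of 0.02, and its neutrophil values were 1.51 and 0.829 against 1.52 and 1.09. For all genes, 32.6% of combinations lay above and 19.1% below, and the others overlapped. No call was made for either gene (0 by edgeR, and 0 at an unadjusted p under 0.05).

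Whether a gene's tumor change in 1 gate differed from its change in the other gates was tested as an interaction. None of the 60 combinations passed (0 by edgeR, 8 at an unadjusted p under 0.05), and 0.746% of all genes' combinations did. The smallest adjusted p was 0.0832, for Stat5a in cDC1, at -1.55 ± 0.44 (SE) against the other gates. With stricter gates this difference was called (-2.13, adjusted p = 0.0441 by edgeR), and without control skin 2 it was -2.66. For Stat4 the NK value was 1.32 lower on the log2 scale than in the other gates (adjusted p = 0.242 by edgeR). The rise of Stat4 in cDC2, CD4 T cells and Treg was therefore not shown to differ from its change elsewhere.

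When all kept cells of a library were summed, Stat3 fell. It was at 9.72 and 8.58 UMIs per 10000 in control skin and 5.01 and 6.76 in the tumors, with a log2 change of -0.80 ± 0.20 (SE; adjusted p = 0.0470 by edgeR), in a comparison where 14.7% of 16543 genes were called lower. The cell makeup differed at the same time. DETC, which hold 13.5 and 13.3 UMIs of Stat3 per 10000, were 590 and 683 cells in control skin against 2 and 20 in the tumors, and macrophages, which hold 4.07 and 3.49, were 72 and 207 against 1933 and 670. With the 10 tested gates weighted by their share in control skin (31.8% of its gated cells), Stat3 was at 7.31 and 8.0 in control skin and 7.02 and 9.87 in the tumors, with the groups overlapping. In cells that met no gate, which the weighting leaves out, Stat3 was at 14.1 and 12.1 in control skin and 7.68 and 9.73 in the tumors. The weighted level thus covers other cells as well as other weights. The part of each was not tested. The call over all kept cells was lost without control skin 1 (log2 change -0.74, adjusted p = 0.212), control skin 2 (-0.90, adjusted p = 0.127) or tumor 1 (-0.63, adjusted p = 0.0608).

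The other members were not called over all kept cells. Stat5a was at 1.40 and 1.02 against 0.627 and 0.876 (-0.86 ± 0.24, adjusted p = 0.0617 by edgeR) and, with gates weighted, at 1.36 and 1.29 against 0.902 and 1.46. Stat4 was at 1.78 and 1.09 against 1.97 and 2.24, and in the weighted gates, which are other cells as well as other weights, at 2.34 and 2.28 against 3.35 and 4.14. Stat2 was at 0.654 and 0.734 against 1.23 and 0.905, and with gates weighted at 0.494 and 0.586 against 1.00 and 0.811, above control on both scales. Stat5b overlapped over all kept cells (2.20 and 1.75 against 1.98 and 2.08) and lay above control with gates weighted (2.25 and 2.16 against 2.35 and 2.76). Stat6 was at 0.441 and 0.432 against 0.533 and 0.500, and with gates weighted at 0.512 and 0.464 against 0.558 and 0.580, a narrow gap on both scales.

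**Figure D4:**
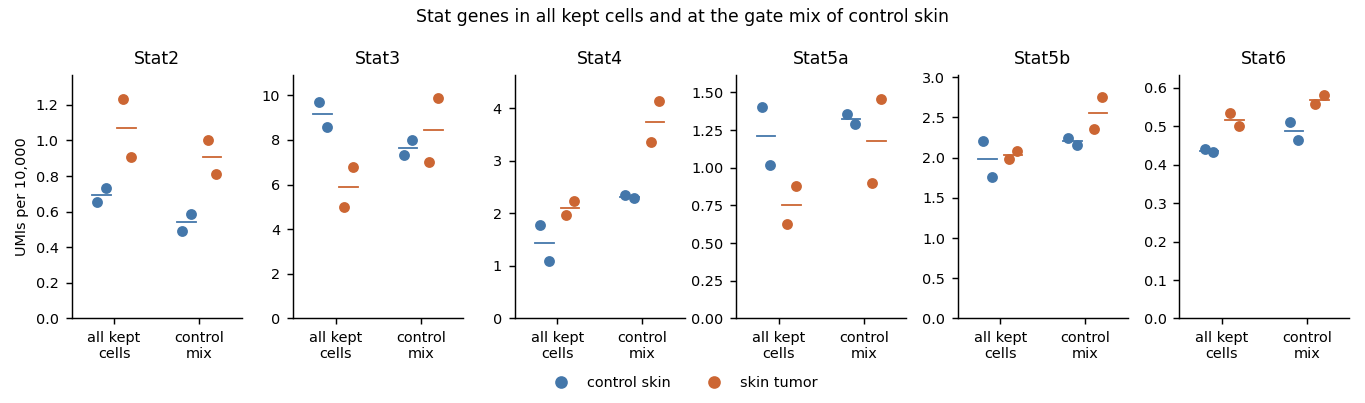
UMIs per 10000 of each Stat gene over all kept cells and with the 10 tested gates weighted by their share in control skin (control mix), 1 point per library and short lines at the group means. Stat3 is lower in the tumors over all cells (5.01 and 6.76 against 9.72 and 8.58) and overlaps control skin in the weighted gates (7.02 and 9.87 against 7.31 and 8.0).

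The genes with the most similar patterns over the 14 gates of control skin were listed among 10728 genes by Pearson's r of log2 levels, as a description in which the points share 2 libraries. For Stat4 they were Il18rap (0.920), a chain of the IL-18 receptor, Nt5e (0.906) and Zdhhc18 (0.901). For Stat2 they were Il11ra1 (0.945), Pkib (0.941) and H2-DMa (0.937), which helps load peptides onto MHC class II. For Stat3 they were Ing1 (0.944), Cep120 (0.942) and Rasal3 (0.941), and for Stat6 Txnrd1 (0.898), a thioredoxin reductase, Pcf11 (0.873) and Gadd45b (0.869). The genes named for the paralogs did not overlap, with Ccser2 (0.936) and Exog (0.899) for Stat5a and Abhd18 (0.958), Sntb1 (0.930) and Cep97 (0.930) for Stat5b.

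The rest of the pathway was read from 9 lists of kinases, inhibitors, receptors, ligands and target genes. Of the 705 gene and gate combinations that passed the count filter, 92 were called between tumor and control skin. The targets of STAT2 stood at 27 higher and 0 lower of 80 (33.8% higher, median log2 change 1.35), while the Janus kinases had 0 higher and 0 lower of 33 (median 0.07). Receptors had 5 higher and 19 lower of 187 (10.2% lower, median -0.08) and inhibitors 6 higher and 3 lower of 144 (median 0.03). The shares stand against 2.13% higher and 2.41% lower over all genes, and genes of a list are not independent.

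**Figure D5:**
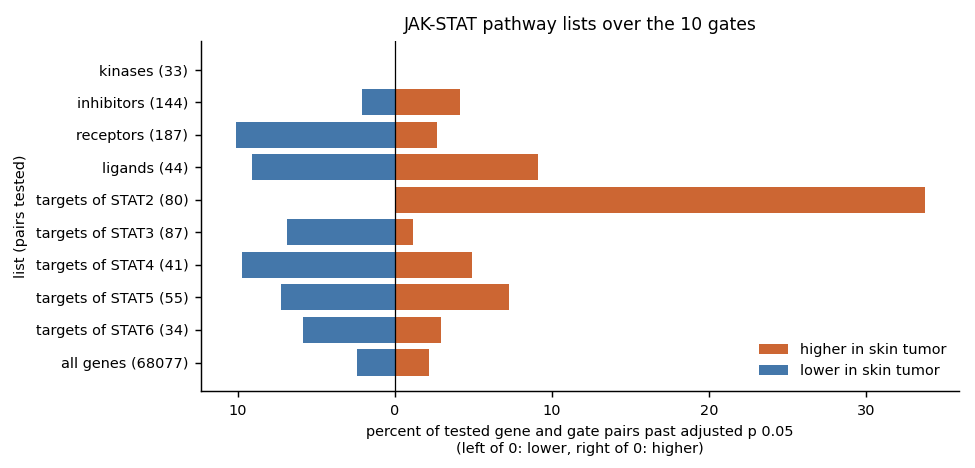
Percent of gene and gate combinations called higher (right of 0) or lower (left of 0) in tumor libraries in each of the 9 pathway lists and over all genes, with the number tested in parentheses. The targets of STAT2 are called higher in 33.8% and lower in 0, and the receptors are called lower in 10.2%.

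Among the ligands, Il21, which signals through STAT3, was at 0.351 and 0.141 UMIs per 10000 in tumor CD4 T cells, with no UMI in control skin, which allows levels of up to 0.0369 and 0.0769 there (3 UMIs of each library's total). In the same gate the type 2 cytokines Il4, which signals through STAT6, and Il5, which signals through STAT5, fell, from 0.725 and 0.487 to 0.0257 and 0.0377 for Il4 and from 0.283 and 0.487 to 0.00855 and 0.00942 for Il5 (adjusted p = 0.00202 and 0.00304 by edgeR). Ifnb1, a type I interferon, was at 0.244 and 0.582 in tumor cDC2, against no UMI in control skin 1, which allows up to 0.0287, and 0.00686 in control skin 2 (adjusted p = 0.0232 by edgeR). The ligand calls came from 3 gates, cDC2, CD4 T cells and CD8 T cells, the last with 1 call, which was lower.

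Among the receptors, Il7r, the IL-7 receptor chain that signals through STAT5, fell in CD8 T cells from 3.06 and 1.57 to 0.389 and 0.664, in NK cells from 1.95 and 0.628 to 0.122 and 0.0843 and in cDC2 from 3.95 and 3.81 to 1.54 and 0.833. In the cDC2 gate, 31 of 46 and 55 of 73 control cells held no Fscn1, Cacnb3 or CD3 genes, against 76 of 83 and 30 of 35 tumor cells. The part of such cells in the receptor changes of cDC2 was not tested. Il6st, the shared chain of IL-6 family receptors upstream of STAT3, fell in Treg from 3.50 and 3.41 to 1.02 and 1.53, as well as in cDC1 and cDC2. Il9r fell in CD8 T cells, CD4 T cells and Treg, where its level was at most 0.406. Il15ra, which presents IL-15, rose in cDC2 (0.00957 and 0.00686 against 0.119 and 0.0943) and CD4 T cells.

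Among the inhibitors, Usp18, which limits interferon receptor signaling, rose in cDC2, CD8 T cells, CD4 T cells, Treg and NK cells. In cDC2 it went from 0.105 and 0.123 to 0.766 and 0.786 UMIs per 10000. Sh2b3, an adaptor that dampens cytokine signals, fell in CD8 T cells (0.274 and 0.493 to 0.0552 and 0.0830) and CD4 T cells, Socs1 fell in CD8 T cells (0.593 and 0.705 to 0.294 and 0.394), and the phosphatase gene Ptpn6 rose in cDC2 (0.746 and 0.686 to 1.66 and 1.56).

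The targets of STAT2 are interferon-stimulated genes. Ifit1 rose in 5 gates, cDC2, CD8 T cells, CD4 T cells, Treg and NK cells, and in NK cells stood at 0.0219 and 0.0273 in control skin and 1.38 and 0.472 in the tumors. Mx1, an antiviral GTPase, rose in cDC2, CD8 T cells, CD4 T cells and NK cells. Irf7, a factor that amplifies interferon production, rose in cDC1, cDC2 and Treg, and in cDC2 went from 0.0765 and 0.151 to 1.69 and 1.23 (3.42 ± 0.35, adjusted p = 0.0101 by edgeR). In cDC2 and Treg, Stat2 itself was also higher in both tumors but did not pass. Macrophage RNA was present at low level in the lymphocyte gates of the tumors: C1qa was at 0.136 and 0.368 in tumor Treg and at 30.1 and 21.0 in tumor macrophages, while Ifit1 was at 0.578 and 0.596 in tumor Treg and at 0.956 and 0.602 in tumor macrophages. The part of macrophage RNA in the Ifit1 values was not tested.

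Targets of the other members moved in both directions. Ifng, the STAT4 target that defines type 1 T cells, rose in CD4 T cells from 0.787 and 0.359 to 2.09 and 2.54 (1.81 ± 0.34, adjusted p = 0.0142 by edgeR), while Furin, also on that list, fell in cDC1, cDC2, CD8 T cells and NK cells and rose in mast cells. The STAT4 list as a whole had 2 higher and 4 lower of 41 (median log2 change -0.43). In CD4 T cells 1 of its 6 genes was called higher, Ifng, and the median of the list there was -0.46. Il12rb2, Il18r1, Il18rap and Tbx21 were called in no gate.

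On the STAT5 list, Il2ra, the IL-2 receptor alpha chain, fell in Treg from 14.7 and 12 to 4.54 and 4.93 (-1.51 ± 0.25, adjusted p = 0.00545 by edgeR) and in NK cells from 3.27 and 1.47 to 0.0752 and 0.152. Bcl2, which protects cells from apoptosis, rose in cDC2, CD8 T cells, CD4 T cells and NK cells, in NK cells from 2.52 and 2.78 to 8.10 and 8.53. The list had 4 higher and 4 lower of 55. On the STAT3 list there was 1 higher and 6 lower of 87: Il1r2, a decoy receptor for IL-1, rose in CD4 T cells, whereas Fgl2 fell in CD8 T cells and CD4 T cells, Junb in CD8 T cells and NK cells, and Pim1 in cDC1 and CD8 T cells. Junb also responds to dissociation. Genes induced by dissociation, Junb among them, summed to 31.9 and 28.1 in CD8 T cells of control skin and 46.4 and 40.6 in those of the tumors. In NK cells they summed to 38.2 and 26.0 against 78.8 and 58.0. The part of dissociation in the Junb values was not tested. On the STAT6 list, with 1 higher and 2 lower of 34, the lectin gene Mgl2 rose in cDC1 (0.213 and 0.115 to 1.03 and 1.66) and fell in cDC2 (9.02 and 10.4 to 4.90 and 5.96), and the mannose receptor gene Mrc1 fell in cDC2 (5.78 and 5.44 to 1.45 and 1.23).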

How the data were processed

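The deposited files hold counts of UMIs per gene and cell barcode, made by the authors with Cell Ranger (7.1.0 per the labels, 7.0.1 per the file headers) on mm10 and filtered to cells. Whether intronic reads were counted is not given in the sources used here, and they would add most to long genes. Cells with at least 100 genes, 1000 UMIs, at most 15% mitochondrial UMIs and a log10 gene to UMI ratio of at least 0.8 were kept and assigned to gates by marker UMIs. Cells in several gates were left out, and no doublet caller was run. Counts were summed per library and gate, and gates with at least 10 cells in every library were tested with edgeR 4.0.16 (TMM, quasi-likelihood, filterByExpr, R 4.3.3), with Benjamini-Hochberg adjustment over all genes of a gate and a threshold of 0.05. DESeq2 1.42.0 was the alternative tool. Leaving out cells with NK markers (CD4 T cells, Treg) or with Fscn1, Cacnb3 or CD3 genes (cDC2) was an alternative added after seeing the data. The members were fixed by name, each pathway list gave up to 4 names, those called in most gates with ties by mean absolute change, and members and lists were chosen with earlier results of these data known. No intervals were drawn for levels, and counting error is part of the model. Some items, among them an allele of the line and 1 similar gene, are not reported here.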

Additional observations from a re-analysis of the deposited data

Results flagged for a closer look

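These values come from cells outside the 10 tested gates, in which both tumor libraries lay above both control libraries beyond their 95% counting intervals, and none was tested. The intervals reflect counted UMIs alone, not the spread between cells or libraries. Stat4 in DETC was at 1.02 and 0.799 UMIs per 10000 in control skin and 6.03 and 2.25 in the tumors, where the gate held 2 and 20 cells. In ILC2, from 115, 97, 9 and 4 cells, Stat4 was at 3.89 and 4.27 against 11.2 and 17.7, and Stat5b at 2.88 and 3.29 against 12.1 and 6.33. Stat2 in cells that met no gate was at 0.570 and 0.761 against 1.66 and 1.01, from 1054, 931, 1410 and 493 cells. Stat4 in cells that met several gates, which can be doublets, was at 1.05 and 0.599 against 2.33 and 2.84, from 284, 351, 83 and 158 cells. Over all genes and tested gates, 32.6% of combinations lay above control in both tumors, without regard to counting error. In the opposite direction and by the same intervals, cells that met no gate held Stat3 at 14.1 and 12.1 against 7.68 and 9.73, and Stat5a at 2.19 and 1.63 against 1.22 and 1.23.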

How the results depend on the processing

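Of 1263 alternative values of single results, 1200 were counted as the same, 32 lost and 26 gained a call, 3 values without a test moved and 2 reversed. For tested results, the same means the same side of the threshold. A change of direction was counted there only where the main or the alternative value was called. Uncalled results among the 1200 can therefore differ in direction. The reversals were Stat3 in neutrophils against the other gates, -0.11 in the control libraries alone against 0.57, and Stat3 over all kept cells, 0.791 UMIs per 10000 higher in the tumors with gates weighted by control share against -3.27. The 3 Stat calls within gates became 6 with no filter on low counts and 1 to 6 without a replicate. Calls over all genes within gates (3095) became 7855 with no filter, 1698 without cycling cells and 921 to 6776 without a replicate, and the 92 pathway calls 222, 56 and 28 to 171. Without a replicate, 1 library stands for a group and is assumed to vary like the other. The interaction count of 0 became 1 with stricter gates and 0 to 3 without a replicate. Over all kept cells the 1 Stat call became 2 with DESeq2, 2 with no filter and 0 to 3 without a replicate, and the 4090 calls of all genes ranged from 558 to 6127 without a replicate.

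Replicate numbers did not pair the libraries, with same-number correlations from -0.08 to 0.09. With the replicate block the counts within gates were 2 Stat, 3132 all-gene and 91 pathway calls, Stat4 in Treg had an adjusted p of 0.0515 by edgeR, and over all kept cells there were 0 Stat calls (Stat3 adjusted p = 0.0706 by edgeR) and 2580 of all genes.

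Depth limits the small gates: neutrophils of control skin 1 held 79650 UMIs in 17 cells, cDC1 11 to 66 cells per library and mast cells 20 to 40, where 3 members did not reach the count filter.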
